A study of Mus musculus with 14 samples.

Results

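The data describe how the gene expression changes that MC3T3-E1 cells made between day 0 and day 5 differed between a control condition and a condition labelled MACF1 knockdown. MC3T3-E1 is a mouse pre-osteoblast line that forms a mineralising matrix in culture, and MACF1 is a large linker protein that joins actin filaments to microtubules and has been tied to Wnt signalling. The study asked whether MACF1 furthers osteoblast differentiation through Wnt signalling. RNA was sequenced in 14 libraries, and the 8 used here are 2 control libraries at day 0, 2 control libraries at day 5, 2 libraries labelled MACF1 knockdown at day 0 and 2 labelled so at day 5. All come from the same line with no other agent or allele named. The sources used here give neither the knockdown construct, nor whether a line is 1 clone, nor what day 0 is counted from. The members were every gene with at least 10 counts in at least 2 of the 8 libraries, which left 12775 of the 24346 genes in the count table, and 11571 were too low. The series' design text calls same-day libraries biological replicates without naming separate cultures, so the p-values reflect only how far these libraries scatter, which may be technical.

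Osteoblast precursors under the control of RUNX2 and SP7 first lay down a collagen matrix and then switch on alkaline phosphatase, phosphate-handling enzymes and acidic phosphoproteins that govern its mineralisation. Wnt signals acting through beta-catenin and the LEF and TCF factors favour that switch, and cells damp it with secreted antagonists that are themselves Wnt targets. Maturing osteoblasts also change their metabolism, their contractile apparatus and the factors they send to osteoclasts.

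For each gene 3 quantities were computed on the log2 scale with edgeR's quasi-likelihood test. They were the control course (day 5 against day 0 in control), the labelled-knockdown course (the same in the libraries labelled knockdown) and the difference of the courses (the second minus the first). Adjusted p-values are Benjamini-Hochberg values over all 12775 genes, and a gene passed below 0.05. A change was called lost where it passed in control, did not pass in the labelled-knockdown libraries, and the difference of the courses passed. It was called gained in the converse case. Changes that passed in both conditions in the same direction were kept where the difference did not pass, and weakened or strengthened where it did. They were called reversed where both passed in opposite directions. A change that passed in 1 condition without the difference passing was left undecided. Levels are CPM, a gene's counts scaled to library size, written for replicate 1 and then replicate 2. Gene positions are on GRCm38 from the GENCODE M21 annotation.

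The targeted gene itself, Macf1 (ENSMUSG00000028649.15, chr4:123349633-123684360, minus strand), did not pass as lower in the libraries labelled knockdown at day 0 or day 5. It had 157 and 164 CPM at day 0 and 178 and 208 CPM at day 5 in control, and 158 and 165 CPM at day 0 and 171 and 183 CPM at day 5 in the labelled-knockdown libraries. The ranges of the conditions overlapped at both days, and the difference of the courses was -0.13 (SE 0.14, adjusted p = 0.665). The difference between conditions at day 5 was -0.12 (SE 0.10, adjusted p = 0.373, same edgeR test). The libraries of days 0 and 5 thus do not show the labelled knockdown at the RNA level, and the term labelled knockdown is used throughout. Days 3 and 10 were read as levels without a test. At day 10, which has no replicates, Macf1 was lower in labelled knockdown (131 CPM, against 199 for control). At day 3 the labelled-knockdown levels (174 and 172 CPM) lay between those of the control replicates (195 and 56.7 CPM). Total counts of the 8 libraries ran from 12590033 to 23301514, and the replicates of a group correlated at 0.992 to 0.994 in log2 CPM. Osteoblast markers summed to 12723 to 14101 CPM at control day 0, 27710 to 27743 at control day 5, 12028 to 12116 at labelled-knockdown day 0 and 17070 to 17769 at labelled-knockdown day 5, with all 10 detected. A few abundant genes carry this sum. At day 5 Ibsp had 8462 and 7392 CPM in control against 401 and 353 in labelled knockdown, and Spp1 3965 and 3462 against 2274 and 2148. Col1a1 (6507 and 7313 against 6105 and 6323) and Col1a2 (7990 and 8702 against 7920 and 8588) were closer, and Bglap was higher in labelled knockdown. Summed markers of macrophages and osteoclasts, of endothelial cells and of adipocytes lay between 0.554 and 10.2 CPM in every library.

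More genes passed in the control course than in the labelled-knockdown course. In bulk RNA, fewer cells of a type and less RNA per cell cannot be told apart. In control 2027 genes rose and 2066 fell, which is 15.9% and 16.2% of the genes tested (32.0% in all). In the labelled-knockdown libraries 1015 rose and 941 fell, or 7.95% and 7.37% (15.3% in all). The difference of the courses passed for 1211 genes (9.48%), of which 679 were positive (5.32%) and 532 negative (4.16%). With the replicate number as a block in the model these counts were 1721 (13.5%) and 1761 (13.8%), or 27.3% in all, and they held all 1211 genes of the fit without it.

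Of the changes, 962 were kept (7.53% of genes tested), 687 were lost (5.38%), 166 weakened (1.30%), 37 strengthened (0.290%), 138 reversed (1.08%) and 158 gained (1.24%). A further 2598 (20.3%) were undecided, 2103 of them called in control only, and 25 (0.196%) passed for the difference alone. Lost changes were 323 rises and 364 falls, so 16.8% of the control changes were lost and 23.5% were kept. Kept changes made up 49.2% of the changes called in the labelled-knockdown libraries. Among the reversed genes, 44 rose in control and 94 fell there. With the replicate block the counts were 1947 kept, 1488 lost, 830 weakened, 167 strengthened, 418 reversed and 513 gained. Not every gene stayed in its class. Of the 962 kept, 687 lost and 158 gained, 707, 460 and 101 had the same class with the block. All weakened, strengthened and reversed genes did.

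Most control changes pointed the same way in the labelled-knockdown libraries but were smaller. The genes that rose in control had a median change of 0.71 there and 0.30 in the labelled-knockdown libraries, and 84.1% kept their sign. The genes that fell in control had medians of -0.66 and -0.24, and 79.5% kept their sign. Because control genes were picked for a large control value, the shrinkage was also read the other way round. The 1015 labelled-knockdown rises had a median of 0.72 there and 0.59 in control, and the 941 falls had medians of -0.58 and -0.48. The 2 courses share no library, and across all genes tested their changes correlated at 0.475 (Pearson, a description over genes that share libraries and depth).

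**Figure D1:**
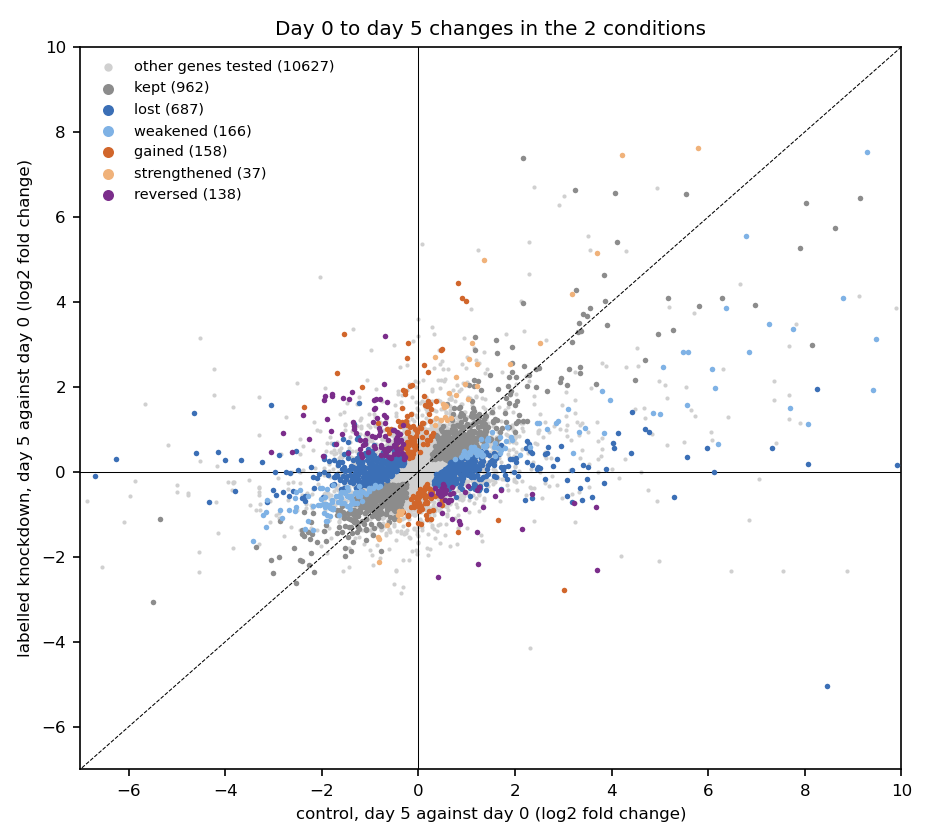
Each point is 1 of the 12775 genes tested, with its log2 change from day 0 to day 5 in control (x axis) and in the libraries labelled knockdown (y axis), coloured by class, and 3 genes lie outside the axes. Lost changes lie along the horizontal zero line, reversed changes in the upper left and lower right, and kept changes near the dashed line of equal change.

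Most of the mineralisation genes and bone matrix phosphoproteins tested rose in control, and the differences of courses went both ways among the former. Of 13 mineralisation and phosphate-handling genes tested, 9 rose and 3 fell in control, 5 rose and 3 fell in labelled knockdown, and the difference passed for 3 upward and 5 downward (3 and 7 with the replicate block). Their median change was 1.94 in control and 0.55 in labelled knockdown, against -0.02 and -0.00 over all genes tested. Of 6 secreted bone matrix phosphoproteins tested, 5 rose in control, while 3 rose and 2 fell in labelled knockdown. The difference was negative for 3 and positive for none (3 and 1 with the block). Here and for every list below, the shares over all genes tested were 5.32% positive and 4.16% negative. With the block they were 13.5% and 13.8%, so block counts are to be read against those larger shares.

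Phospho1 (ENSMUSG00000050860.6, chr11:95824499-95832140, plus strand), the phosphatase that frees phosphate inside matrix vesicles, had 0.709 and 1 CPM at day 0 and 123 and 138 CPM at day 5 in control, and 1.91 and 2.25 CPM at day 0 and 21.8 and 24.2 CPM at day 5 in labelled knockdown. All 4 groups stood apart, with labelled knockdown the higher at day 0 and the lower at day 5. It rose 152-fold in control and 11.1-fold in labelled knockdown, a difference of -3.78 (SE 0.29, adjusted p = 2.47e-05), so the rise was weakened.

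Ibsp (ENSMUSG00000029306.8, chr5:104299171-104311469, plus strand), bone sialoprotein, which nucleates hydroxyapatite, had 14.9 and 10.2 CPM at day 0 and 8462 and 7392 CPM at day 5 in control, and 1.47 and 2.74 CPM at day 0 and 401 and 353 CPM at day 5 in labelled knockdown. The labelled-knockdown libraries were the lower at both days. The rise was 627-fold against 183-fold, a difference of -1.77 (SE 0.35, adjusted p = 0.0108), which did not pass without labelled-knockdown day 0 replicate 2 (adjusted p = 0.0994).

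Dmp1 and Spp1 moved in opposite directions in the 2 conditions. Dmp1 (ENSMUSG00000029307.7, chr5:104202613-104214102, plus strand), a phosphoprotein typical of late osteoblasts and osteocytes, had 14.8 and 12.1 CPM at day 0 and 130.0 and 122 CPM at day 5 in control, and 128 and 108 CPM at day 0 and 76.1 and 65.9 CPM at day 5 in labelled knockdown. At day 0 the labelled-knockdown libraries were already about as high as control became at day 5, and they then fell. The control rise was 3.22 (SE 0.14, adjusted p = 1.52e-07), the labelled-knockdown change -0.73 (SE 0.12, adjusted p = 0.00288), and the difference -3.95 (SE 0.19, adjusted p = 1.07e-06). Spp1 (ENSMUSG00000029304.12, chr5:104435118-104441050, plus strand), osteopontin, an inhibitor of crystal growth, had 2024 and 1804 CPM at day 0 and 3965 and 3462 CPM at day 5 in control, and 4219.9 and 3860.0 CPM at day 0 and 2274 and 2148 CPM at day 5 in labelled knockdown. Again day 0 was high in labelled knockdown and low in control, and the conditions did not overlap at either day. The courses were 0.96 (SE 0.12, adjusted p = 0.000162) in control and -0.87 (SE 0.12, adjusted p = 0.000749) in labelled knockdown.

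Dmp1, Ibsp and Spp1 lie in the phosphoprotein cluster of chromosome 5. For each reversed gene, the RefSeq promoter nearest the annotated gene start holds the core recognised by RUNX factors. Dmp1, Spp1 and Alpl have 2 RefSeq promoters each, and only the nearest is described. Those of Dmp1 and Spp1 are shown because these were the 2 phosphoproteins whose courses reversed. The window is up to 250 bases before the start (GRCm38.p6), for Dmp1 chr5:104202367-104202612, plus strand and for Spp1 chr5:104434861-104435110, plus strand, and capitals mark TGTGGT on either strand.
Dmp1: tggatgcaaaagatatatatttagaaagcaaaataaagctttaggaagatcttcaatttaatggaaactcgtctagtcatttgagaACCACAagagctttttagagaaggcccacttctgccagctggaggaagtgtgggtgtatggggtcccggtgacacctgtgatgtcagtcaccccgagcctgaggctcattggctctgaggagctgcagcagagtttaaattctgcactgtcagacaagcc
Spp1: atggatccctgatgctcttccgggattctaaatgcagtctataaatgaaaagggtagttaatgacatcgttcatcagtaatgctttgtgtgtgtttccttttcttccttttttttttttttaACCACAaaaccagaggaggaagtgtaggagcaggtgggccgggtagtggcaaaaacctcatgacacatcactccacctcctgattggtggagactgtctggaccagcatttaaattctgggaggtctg
The match begins 164 bases before the RefSeq start in Dmp1, a start 4 bases inside the annotated gene, and 128 before it in Spp1. The same 6 letters occur in 12.36% of the 11853 promoters of the tested genes found in the table (9275 genes), in 5 of the 25 promoters of mature osteoblast genes and in 11.9% of the 336 promoters of lost rises. These shares were counted over longer windows than the ones shown, since they also run past the start. The windows of Phospho1 and Alpl do not hold them, nor does that of Ibsp, which is only 134 bases long. A match is a description of these letters and not of binding.

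Alpl (ENSMUSG00000028766.8, chr4:137741733-137796384, minus strand), tissue-nonspecific alkaline phosphatase, had 2.9 and 2.65 CPM at day 0 and 157 and 152 CPM at day 5 in control, and 0.218 and 0.211 CPM at day 0 and 45.8 and 41.6 CPM at day 5 in labelled knockdown. The labelled-knockdown libraries were lower at both days, with only 4 and 3 counts at day 0. On the log2 scale its rise was larger in labelled knockdown, by 1.82 (SE 0.35, adjusted p = 0.00779), while in CPM the labelled-knockdown libraries gained 109 fewer. The log2 difference did not pass without either of the 2 labelled-knockdown day 0 libraries (adjusted p up to 0.0726), and with limma on log2(RPKM + 1) its sign turned (-0.86, adjusted p = 0.00688). Enpp2, autotaxin, and Nt5e, which turns AMP into adenosine and phosphate, both rose less in labelled knockdown, with differences of -2.75 (SE 0.75, adjusted p = 0.0442) and -2.59 (SE 0.49, adjusted p = 0.00792). The Enpp2 call held in 2 of the 8 fits that each left out 1 library (adjusted p up to 0.581). Phex, which cleaves phosphoprotein peptides, rose in both conditions, by 1.94 and 2.93, with a difference of 0.99 (SE 0.51, adjusted p = 0.295) that passed with limma on log2(RPKM + 1) (1.39, adjusted p = 0.00096). Mepe was below the filter, with between 0 and 11 counts in a library.

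**Figure D2:**
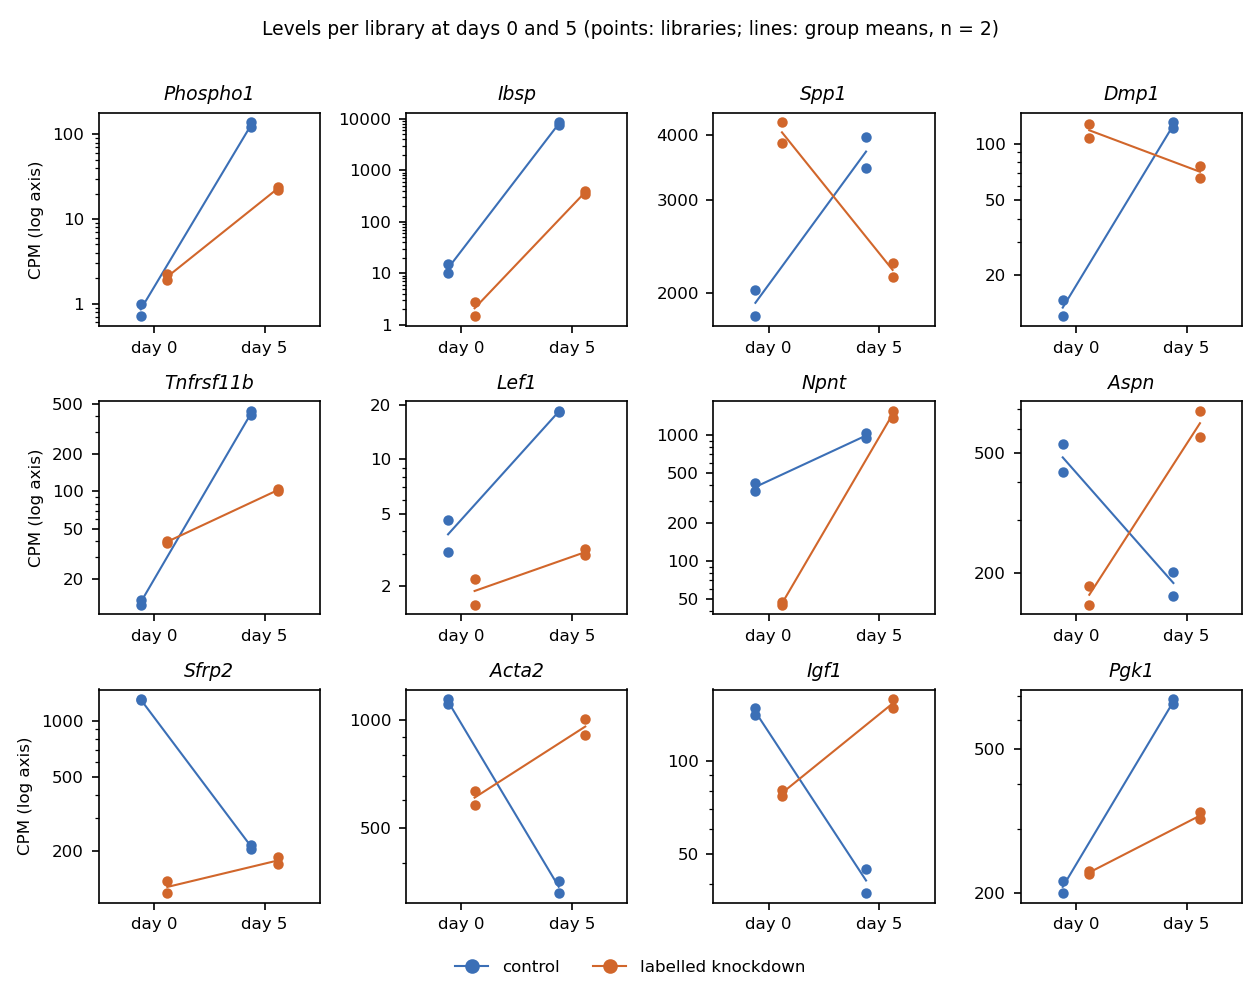
CPM on log axes in the 8 libraries (points) and group means (lines, n = 2) for 12 genes at day 0 and day 5, control in blue and labelled knockdown in orange. Phospho1 and Ibsp rise less in labelled knockdown, while the lines of Spp1, Dmp1, Aspn, Sfrp2, Acta2 and Igf1 cross or converge with opposite slopes.

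Mature osteoblast genes rose in both conditions. Of 25 tested, 19 rose in control and 18 in labelled knockdown, with 2 and 3 falling, and the difference passed for 8 upward and 7 downward (12 and 8 with the block), so the list as a whole showed no single direction. Panx3, a channel of differentiating osteoblasts, had 2.19 and 0.429 CPM at day 0 and 165 and 146 CPM at day 5 in control, and 0.98 and 0.633 CPM at day 0 and 5.73 and 6.17 CPM at day 5 in labelled knockdown. Day 0 ranges overlapped and day 5 ranges stood far apart, and the difference of the courses was -4.01 (SE 0.70, adjusted p = 0.00588). That call was lost without labelled-knockdown day 0 replicate 1 (adjusted p = 0.0882). Ifitm5, the osteoblast membrane protein BRIL, rose in control to 7.99 and 7.91 CPM but had 0.34 and 0.407 CPM at labelled-knockdown day 5, so its rise was lost (-3.48, SE 0.76, adjusted p = 0.0167, held in 5 of 8 leave-one-out fits).

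Mmp13, the collagenase of hypertrophic and late osteoblastic cells, had 4.7 and 5.44 CPM at day 0 and 46.3 and 45.1 CPM at day 5 in control, and 28.3 and 27.3 CPM at day 0 and 544 and 468 CPM at day 5 in labelled knockdown. Labelled knockdown was the higher at both days and its rise was the larger, 18.2-fold against 9.02-fold (difference 1.01, SE 0.17, adjusted p = 0.0039). Bglap, osteocalcin, ended at 1.24 and 1.27 CPM in control and at 9.17 and 9.49 in labelled knockdown, from 0 to 0.163 CPM at day 0 in both. Bglap2 ended at 1.58 and 1.19 CPM against 7.3 and 8.34. The 2 are near-identical copies, so how reads were shared between them is uncertain, and neither difference of courses passed (adjusted p = 0.416 and 0.982). The Bglap difference passed with limma on log2(RPKM + 1) (2.47, adjusted p = 0.000832). Mgp, matrix Gla protein, an inhibitor of calcification, passed in neither course (0.03 and 0.39), and the difference of 0.36 (SE 0.25, adjusted p = 0.452) passed only with the replicate block (adjusted p = 0.00067).

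The master transcription factors of the lineage rose in both conditions. Runx2 had 86.7 and 80.9 CPM at day 0 and 159 and 148 CPM at day 5 in control, and 56.7 and 48 CPM at day 0 and 128 and 109 CPM at day 5 in labelled knockdown. Labelled knockdown was lower at both days, and the rise was 0.88 (SE 0.11, adjusted p = 0.000255) in control and 1.18 (SE 0.12, adjusted p = 0.000114) in labelled knockdown. Their difference, 0.30 (SE 0.16, adjusted p = 0.314), passed with the replicate block only (adjusted p = 0.00857). Sp7, osterix, rose by 1.52 and 1.42, with a difference of -0.10 (SE 0.18, adjusted p = 0.806). Among 23 osteoblast transcription factors tested, 7 rose and 9 fell in control and 5 rose and 3 fell in labelled knockdown. The difference was positive for 4 and negative for 3 (9 and 8 with the block).

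Mef2c, which drives late osteoblast and osteocyte genes, had 35.3 and 36.4 CPM at day 0 and 173 and 179.9 CPM at day 5 in control, and 25.8 and 27.9 CPM at day 0 and 40.5 and 39.6 CPM at day 5 in labelled knockdown. The control day 5 libraries stood far above the other 3 groups, and the difference was -1.72 (SE 0.13, adjusted p = 2.06e-05). Dlx3, a homeobox activator of osteoblast genes, had 0 counts in both control day 0 libraries and reached 4.67 and 6.25 CPM at control day 5, against 1.32 and 0.881 in labelled knockdown, and its call (adjusted p = 0.0499) held in 0 of the 8 leave-one-out fits. Runx3 rose in control (0.63) and not in labelled knockdown (-0.34, SE 0.12, adjusted p = 0.0795), where it fell with the replicate block. Msx2, a BMP-responsive homeobox gene, fell by 1.62 in control alone, a lost fall whose call held in 1 leave-one-out fit. Dlx5 fell only in labelled knockdown (-0.55, SE 0.10, adjusted p = 0.00401), and its difference of -0.48 (SE 0.14, adjusted p = 0.0546) passed with the block (adjusted p = 0.000828), with median-ratio scaling and with limma. Of 10 osteocyte genes tested, 2 had a positive and 3 a negative difference. Beside Dmp1 and Mef2c, Irx5 lost its control fall (0.81, SE 0.22, adjusted p = 0.0433) and Capg, an actin-capping protein, fell more in labelled knockdown (-0.62, SE 0.15, adjusted p = 0.028), and both calls held in 2 of 8 leave-one-out fits.

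Collagen genes rose more in the labelled-knockdown libraries. Of 25 collagen chains tested, 8 rose and 6 fell in control, while 12 rose and none fell in labelled knockdown. The difference was positive for 12 and negative for 2 (18 and 2 with the block), and the median change was 0.12 against 0.46. Col1a1, the main chain of bone collagen, had 4222 and 5018 CPM at day 0 and 6507 and 7313 CPM at day 5 in control, and 2567 and 2759 CPM at day 0 and 6105 and 6323 CPM at day 5 in labelled knockdown. The labelled-knockdown libraries started lower and ended close to control, and the rises were 0.58 and 1.22. The difference of 0.64 (SE 0.17, adjusted p = 0.043) held in 1 of the 8 leave-one-out fits (adjusted p up to 0.172). For Col1a2 the difference of 0.34 (SE 0.16, adjusted p = 0.259) passed once the replicate number was a block (adjusted p = 0.000242). Col24a1, a fibrillar chain of bone, rose by 1.22 and 2.54 (difference 1.32, SE 0.26, adjusted p = 0.00916), but with limma on log2(RPKM + 1) the difference was 0.26 and did not pass (adjusted p = 0.419).

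The 2 negative differences were of cartilage-type chains. Col11a2 had 0.838 and 0.787 CPM at day 0 and 232 and 209 CPM at day 5 in control, and 1.09 and 0.492 CPM at day 0 and 1.78 and 1.83 CPM at day 5 in labelled knockdown. Day 0 ranges overlapped, while control rose 269-fold and labelled knockdown 2.17-fold, a difference of -6.95 (SE 0.48, adjusted p = 1.07e-05). Col2a1 rose by 1.70 in control and lost that rise (0.11 in labelled knockdown, adjusted p = 0.454). Summed chondrocyte markers, which include Col2a1, ran from 289 to 293 CPM at control day 0, 379 to 393 at control day 5, 318 to 344 at labelled-knockdown day 0 and 247 to 267 at labelled-knockdown day 5. Their part in these results was not tested. Col4a5, a basement membrane chain, fell by 1.12 in control alone, so that fall was lost.

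Enzymes that process collagen leaned the other way from the chains. Of 27 tested, 9 rose and 5 fell in control, 6 rose and 3 fell in labelled knockdown, and the difference was negative for 6 and positive for 1 (7 and 8 with the block, so the lean was not seen there). Lox, which cross-links collagen, had 366 and 344 CPM at day 0 and 592 and 555 CPM at day 5 in control, and 263 and 242 CPM at day 0 and 197 and 197 CPM at day 5 in labelled knockdown. It rose in control (0.69) and fell in labelled knockdown (-0.36), a difference of -1.05 (SE 0.13, adjusted p = 0.000588). P4ha1, a prolyl hydroxylase subunit that is also a hypoxia-response gene, rose in control (2.16-fold) and did not pass in labelled knockdown (0.10, SE 0.09, adjusted p = 0.524). Creb3l1, which activates procollagen genes, rose by 1.82 against 0.73, while Adamts2, the procollagen N-propeptidase, rose only in labelled knockdown (0.94, SE 0.10, adjusted p = 0.000141), from a day 0 level of 19.2 and 18.6 CPM against 119 and 118 in control.

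Proteoglycans and adhesive matrix proteins had 18 of 29 tested members with a positive difference of courses and none negative (22 and none with the block). In control 15 fell and 8 rose, while in labelled knockdown 13 rose and 4 fell, with medians of -0.57 and 0.17. Aspn (ENSMUSG00000021388.11, chr13:49544443-49567565, plus strand), asporin, a small proteoglycan that binds collagen, had 532 and 433 CPM at day 0 and 202 and 168 CPM at day 5 in control, and 182 and 157 CPM at day 0 and 688 and 564 CPM at day 5 in labelled knockdown. The 2 conditions exchanged order, control being high at day 0 and labelled knockdown at day 5. The difference was 3.26 (SE 0.21, adjusted p = 7.53e-06), a reversed change. Ogn, osteoglycin, repeated this, with 433 and 331 CPM at day 0 and 118 and 88.1 CPM at day 5 in control, and 216 and 171 CPM at day 0 and 505 and 404 CPM at day 5 in labelled knockdown, a difference of 3.12 (SE 0.27, adjusted p = 7.25e-05).

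Npnt (ENSMUSG00000040998.16, chr3:132881745-132950291, minus strand), nephronectin, an integrin ligand, rose in both conditions. It had 358 and 413 CPM at day 0 and 938 and 1035 CPM at day 5 in control, and 44.9 and 46.9 CPM at day 0 and 1359 and 1551 CPM at day 5 in labelled knockdown. Labelled knockdown was the lowest group at day 0 and the highest at day 5, with a rise of 31.7-fold against 2.56-fold and a difference of 3.63 (SE 0.16, adjusted p = 1.07e-06). Postn, periostin, had 2288 and 2083 CPM at day 0 and 2042 and 1927 CPM at day 5 in control, and 499 and 473 CPM at day 0 and 2139.8 and 1867 CPM at day 5 in labelled knockdown. Its day 5 ranges overlapped, so a gained rise (2.04, SE 0.11, adjusted p = 1.99e-06) brought labelled knockdown to the control level, and with the block the control course passed as a fall and the change as reversed. Omd, osteomodulin, rose alike, by 3.40 and 3.71, with a difference of 0.31 (SE 0.36, adjusted p = 0.692).

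Matrix proteases and inhibitors were mixed. Of 21 tested, 8 rose and 8 fell in control, 8 rose and 1 fell in labelled knockdown, and the difference was positive for 6 and negative for 1 (10 and 3 with the block). The negative one was Timp1, a metalloproteinase inhibitor, with 79.7 and 101 CPM at day 0 and 298 and 411 CPM at day 5 in control, and 60 and 84.7 CPM at day 0 and 65.6 and 78.2 CPM at day 5 in labelled knockdown. Only control day 5 stood apart from the other groups, and the rise was lost (-1.98, SE 0.28, adjusted p = 0.00195). Adamts1 rose in labelled knockdown alone (1.90, SE 0.13, adjusted p = 8.8e-06), with the block counted as reversed, and Mmp19 reversed (-0.45 and 0.82).

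Canonical Wnt target genes mostly rose in control, and fewer of them passed as rises in labelled knockdown. Of 23 tested, 15 rose and 5 fell in control and 10 rose and 2 fell in labelled knockdown, with medians of 2.13 and 1.09. The difference passed for 2 upward and 4 downward (7 and 4 with the block), and 9 changes were kept. Tnfrsf11b (ENSMUSG00000063727.3, chr15:54250619-54278484, minus strand), osteoprotegerin, the decoy that blocks osteoclast formation, had 13.7 and 12.5 CPM at day 0 and 439 and 407 CPM at day 5 in control, and 40.3 and 39.2 CPM at day 0 and 100.4 and 105 CPM at day 5 in labelled knockdown. Labelled knockdown was higher at day 0 and lower at day 5, its rise being 2.58-fold against 32.3-fold (difference -3.64, SE 0.14, adjusted p = 2.46e-07).

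Wif1, a secreted Wnt antagonist, had 0.709 and 1.36 CPM at day 0 and 82.6 and 87.9 CPM at day 5 in control, and 1.63 and 2.74 CPM at day 0 and 28.5 and 33.7 CPM at day 5 in labelled knockdown. Its rise was weakened by -2.52 (SE 0.39, adjusted p = 0.00247). Lef1 (ENSMUSG00000027985.12, chr3:131110471-131224356, plus strand), a DNA-binding partner of beta-catenin, had 4.64 and 3.08 CPM at day 0 and 18.1 and 18.5 CPM at day 5 in control, and 1.58 and 2.18 CPM at day 0 and 2.97 and 3.19 CPM at day 5 in labelled knockdown. Control day 5 alone was high, and the rise was lost with a difference of -1.51 (SE 0.36, adjusted p = 0.0239), a call that held in 2 of 8 leave-one-out fits (adjusted p up to 0.104). With the block the small labelled-knockdown rise passed as well, which made Lef1 weakened. Tcf7, another such partner, reached 6.98 and 8.07 CPM at control day 5 and 0.382 and 0.678 at labelled-knockdown day 5, from at most 0.286 CPM at day 0, and its difference of courses did not pass (adjusted p = 0.725), though it did with limma on log2(RPKM + 1) (-1.56, adjusted p = 0.000668).

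Tnfrsf19 and Axin2 differed in the opposite sense. Tnfrsf19, a receptor induced by Wnt signals, had 19.6 and 20.9 CPM at day 0 and 381 and 370.5 CPM at day 5 in control, and 0.49 and 0.563 CPM at day 0 and 97.3 and 89.5 CPM at day 5 in labelled knockdown. Labelled knockdown was far lower at both days, yet its relative rise was the larger, 176-fold against 18.6-fold (difference 3.25, SE 0.21, adjusted p = 9.51e-06), while the gain in CPM was smaller. With limma on log2(RPKM + 1) that difference was 0.20 and did not pass (adjusted p = 0.406). Axin2, the feedback inhibitor most used as a readout of beta-catenin activity, had 8.31 and 11.2 CPM at day 0 and 21.4 and 21.5 CPM at day 5 in control, and 2.94 and 3.38 CPM at day 0 and 12.4 and 12.9 CPM at day 5 in labelled knockdown. It was lower in labelled knockdown at both days, rose by 1.14 and 2.01, and its difference of 0.86 (SE 0.26, adjusted p = 0.0643) passed with the block (adjusted p = 0.0069).

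Among 30 Wnt ligands, receptors and antagonists tested, the difference was positive for 5 and negative for 4 (9 and 8 with the block). Sfrp2 (ENSMUSG00000027996.11, chr3:83766321-83774316, plus strand), a secreted Wnt-binding protein, had 1292 and 1302 CPM at day 0 and 206 and 216 CPM at day 5 in control, and 119 and 138 CPM at day 0 and 171 and 186 CPM at day 5 in labelled knockdown. Control day 0 was far above the other 3 groups, and day 5 levels did not differ by the test. It fell by 2.62 (SE 0.11, adjusted p = 9.21e-08) in control and rose by 0.47 in labelled knockdown, a difference of 3.09 (SE 0.15, adjusted p = 1.07e-06). Wnt11 had 0 counts in both control day 0 libraries and both labelled-knockdown day 5 libraries, and reached 2.14 and 3.32 CPM at control day 5, so no fold is given. Wnt6 rose in control only (1.90, difference -1.59, SE 0.34, adjusted p = 0.0146, held in 5 of 8 leave-one-out fits).

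BMP and TGF-beta signalling genes fell in control more than in labelled knockdown. Of 30 tested, 17 fell and 6 rose in control, 5 fell and 8 rose in labelled knockdown, and the difference was positive for 14 and negative for 2 (18 and 2 with the block). Bmp4, a ligand that induces bone, had 172 and 174 CPM at day 0 and 70.5 and 78.6 CPM at day 5 in control, and 13 and 13 CPM at day 0 and 21 and 23 CPM at day 5 in labelled knockdown. The groups did not overlap, labelled knockdown being low throughout, and the fall in control (-1.22) was a rise in labelled knockdown (0.76). Chrdl1, a BMP antagonist, had 1139.9 and 926 CPM at day 0 and 615 and 489 CPM at day 5 in control, and 445 and 368 CPM at day 0 and 1229.7 and 1066 CPM at day 5 in labelled knockdown, and reversed (2.40, SE 0.22, adjusted p = 7.25e-05). Id1, a direct BMP target, fell in both conditions, by 2.83 and 1.10, and Smad6, the inhibitory SMAD, fell in control only (2.33, SE 0.28, adjusted p = 0.000477).

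The IGF system and coupling factors held several reversals. Igf1 (ENSMUSG00000020053.16, chr10:87858265-87937042, plus strand), a growth factor for osteoblasts, had 148 and 141 CPM at day 0 and 44.6 and 37.3 CPM at day 5 in control, and 80.4 and 77 CPM at day 0 and 159 and 149 CPM at day 5 in labelled knockdown. Day 5 levels were 3.51-fold below day 0 in control and 1.95-fold above it in labelled knockdown, a difference of 2.78 (SE 0.15, adjusted p = 2.42e-06). Pappa2, a protease that frees IGF from its binding proteins, also reversed (2.51, SE 0.18, adjusted p = 1.66e-05), and Igfbp2 lost its control rise, staying at 1.9 to 2.63 CPM in labelled knockdown against 127 to 142 at control day 5. Igf2 rose less in CPM in labelled knockdown but more as a log2 change, the difference being 1.45 (SE 0.29, adjusted p = 0.0111). That call was lost without labelled-knockdown day 0 replicate 1 (adjusted p = 0.0862), and with limma on log2(RPKM + 1) the difference was -0.37. Of 14 IGF genes tested, 4 had a positive and 1 a negative difference (6 and 3 with the block).

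Pth1r, the receptor for parathyroid hormone, had 3.74 and 2.58 CPM at day 0 and 348 and 350.4 CPM at day 5 in control, and 0.871 and 1.48 CPM at day 0 and 50.4 and 57 CPM at day 5 in labelled knockdown. It rose 109.6-fold and 46.7-fold, and the difference of -1.23 (SE 0.33, adjusted p = 0.041) held in 2 of 8 leave-one-out fits (adjusted p up to 0.267). Csf1, the factor that macrophages and osteoclast precursors need, had 561 and 576 CPM at day 0 and 213 and 237 CPM at day 5 in control, and 358 and 349 CPM at day 0 and 382 and 366 CPM at day 5 in labelled knockdown. Only control day 5 was low, so the fall was lost (1.42, SE 0.13, adjusted p = 7.37e-05). Of the prostaglandin synthases, Ptgs1 reversed (0.68 and -0.67) and Ptgs2 fell in labelled knockdown only (-0.77, SE 0.19, adjusted p = 0.0219, reversed with the block). In all, 2 of 16 hormone receptor and coupling genes had a positive and 4 a negative difference.

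Contractile genes fell in control and many of them rose in labelled knockdown. Of 20 YAP, SRF and contractile actin genes tested, 14 fell and 1 rose in control, while 8 rose and 2 fell in labelled knockdown. The difference was positive for 13 and negative for none (18 and none with the block), 5 were reversed, and the medians were -0.78 and 0.20. Acta2 (ENSMUSG00000035783.8, chr19:34241090-34255590, minus strand), smooth muscle actin, had 1111 and 1145 CPM at day 0 and 330.2 and 358 CPM at day 5 in control, and 583 and 636 CPM at day 0 and 911 and 1011 CPM at day 5 in labelled knockdown. Control was higher at day 0 and labelled knockdown at day 5, with no overlap (difference 2.37, SE 0.15, adjusted p = 5.71e-06). Tpm1, a tropomyosin that stabilises actin filaments, had 5211 and 4756 CPM at day 0 and 2851 and 2619 CPM at day 5 in control, and 3792 and 3415 CPM at day 0 and 9244 and 8035 CPM at day 5 in labelled knockdown, a difference of 2.13 (SE 0.17, adjusted p = 3.31e-05). Actg2, an enteric-type actin, reversed as well (1.96, SE 0.18, adjusted p = 7.25e-05). Summed skeletal muscle markers were 1.74 to 2.5 CPM in control and 6.75 to 15.4 CPM in labelled knockdown, with 6 of its 8 markers in the count table, 3 of them past the filter and 1 at 0 in all 8 libraries. Their part in the contractile result was not tested.

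Myl9, the regulatory myosin light chain, had 414 and 431 CPM at day 0 and 97.7 and 118 CPM at day 5 in control, and 261 and 283 CPM at day 0 and 332 and 375 CPM at day 5 in labelled knockdown. It fell 3.91-fold in control and rose by 0.38 in labelled knockdown, a difference of 2.35 (SE 0.16, adjusted p = 1.07e-05). Its promoter (chr2:156775214-156775419, plus strand, 206 bases before the annotated gene) is shown as the reversed contractile gene with a CArG box, the SRF recognition sequence, which is in capitals.
Myl9: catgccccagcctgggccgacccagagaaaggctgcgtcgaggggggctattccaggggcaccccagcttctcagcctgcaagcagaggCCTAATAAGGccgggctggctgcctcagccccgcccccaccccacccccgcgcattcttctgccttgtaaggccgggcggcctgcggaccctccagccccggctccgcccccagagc
The box begins 161 bases before the RefSeq start, which lies 44 bases inside the annotated gene. CArG boxes occurred in 4 of 16 promoters of the contractile list (25.0%), against 1.35% of the promoters of tested genes. That list was drawn up in part from SRF genes, so its share is not a result about the courses. The share was 2.5% for genes that fell in control and rose in labelled knockdown, 3.45% for lost falls and 2.98% for lost rises. A match does not describe binding. These CArG shares were counted over longer windows that also run past the start. Acta2 and Tpm1 are not described here, since their windows before the annotated gene were only 33 and 57 bases long, and Actg2 was not matched to an entry.

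Glycolysis and hypoxia-response genes rose in control and mostly did not in labelled knockdown. Of 27 tested, 23 rose and 1 fell in control, against 7 and 2 in labelled knockdown. The difference was negative for 18 and positive for none (22 and 1 with the block). Their control changes were lost for 11, weakened for 6 and reversed for 1, and the medians were 0.82 and 0.20. Pgk1 (ENSMUSG00000062070.10, chrX:106187100-106203699, plus strand), phosphoglycerate kinase, had 199 and 216 CPM at day 0 and 686 and 665 CPM at day 5 in control, and 229 and 225 CPM at day 0 and 320.1 and 333 CPM at day 5 in labelled knockdown. Day 0 levels did not differ by the test and day 5 levels stood apart, control having risen 3.26-fold and labelled knockdown 1.44-fold (difference -1.18, SE 0.13, adjusted p = 0.000215).

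Car9, a carbonic anhydrase strongly induced by low oxygen, had 0.258 and 0.429 CPM at day 0 and 21.6 and 25.5 CPM at day 5 in control, and 1.31 and 1.55 CPM at day 0 and 6.16 and 9.22 CPM at day 5 in labelled knockdown. Its rise was weakened by -3.66 (SE 0.50, adjusted p = 0.00115). Ankrd37, another target of the hypoxia-inducible factors, rose 9.97-fold and 1.9-fold (-2.39, SE 0.30, adjusted p = 0.000691). Bnip3, which promotes the removal of mitochondria, had 37.7 and 39.6 CPM at day 0 and 110.4 and 121 CPM at day 5 in control, and 36.1 and 37.1 CPM at day 0 and 49.3 and 45.3 CPM at day 5 in labelled knockdown (-1.21, SE 0.14, adjusted p = 0.000362). For both genes day 0 levels did not differ by the test and the groups of day 5 did not overlap.

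The promoters of Pgk1, P4ha1 and Bnip3 are shown because these genes lost or weakened their rise together and each holds the core of the hypoxia response element. Capitals mark ACGTG on either strand, in Pgk1 (chrX:106186850-106187099, plus strand), P4ha1 (chr10:59323046-59323295, plus strand) and Bnip3 (chr7:138909520-138909756, minus strand).
Pgk1: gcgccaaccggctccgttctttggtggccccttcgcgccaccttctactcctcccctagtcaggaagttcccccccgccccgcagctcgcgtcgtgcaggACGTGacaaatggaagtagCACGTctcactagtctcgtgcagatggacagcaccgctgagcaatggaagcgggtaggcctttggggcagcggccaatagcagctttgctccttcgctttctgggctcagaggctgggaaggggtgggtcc
P4ha1: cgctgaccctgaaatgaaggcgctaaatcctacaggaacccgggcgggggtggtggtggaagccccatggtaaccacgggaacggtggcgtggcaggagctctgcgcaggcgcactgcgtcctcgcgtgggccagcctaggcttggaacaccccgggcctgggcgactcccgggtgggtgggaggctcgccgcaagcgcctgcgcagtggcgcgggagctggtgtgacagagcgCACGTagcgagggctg
Bnip3: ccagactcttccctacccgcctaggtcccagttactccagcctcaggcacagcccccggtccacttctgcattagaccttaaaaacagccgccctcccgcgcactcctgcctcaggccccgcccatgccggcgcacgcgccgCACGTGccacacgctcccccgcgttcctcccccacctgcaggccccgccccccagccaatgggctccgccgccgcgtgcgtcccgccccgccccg
Pgk1 has 2 matches, beginning 150 and 131 bases before the RefSeq start, P4ha1 has 1 at 16, and in Bnip3 2 overlapping matches on opposite strands begin at 108 and 107. In Bnip3 that start lies 13 bases inside the annotated gene, where the printed window stops. ACGTG was found in 20 of 37 promoters of the list (54.05%, 25 genes). The list was drawn up in part from hypoxia-response genes, so its share is not a result about the courses. ACGTG was in 25.18% of the promoters of tested genes. By class it was in 27.38% for lost rises, 17.53% for lost falls, 18.89% for gained rises and 28.07% for gained falls. For kept rises and kept falls the shares were 24.5% and 21.79%. For reversed genes they were 26.19% where control rose and 11.25% where control fell. All these shares were counted over longer windows that also run past the start.

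Most changes of cholesterol synthesis genes were kept. All 22 cholesterol synthesis genes tested passed in control, 21 falling and 1 rising, and 20 fell in labelled knockdown. Of these changes 16 were kept, and the 4 that passed for the difference were weakened falls (12 positive differences with the block). Sqle, squalene epoxidase, had 289 and 266 CPM at day 0 and 109 and 97.4 CPM at day 5 in control, and 339.9 and 335 CPM at day 0 and 187 and 177 CPM at day 5 in labelled knockdown. Both conditions fell, by 1.42 and 0.89, and labelled knockdown stayed higher (difference 0.53, SE 0.13, adjusted p = 0.0315, held in 1 of 8 leave-one-out fits). Hsd17b7 and Sc5d, which act late in the pathway, had differences of 0.79 and 0.85, and Nsdhl, a sterol dehydrogenase, one of 0.68 (SE 0.15, held in 3 of 8). Among 15 fatty acid genes, 11 fell in control and 6 in labelled knockdown. Acly, which makes cytosolic acetyl-CoA, fell by 1.38 and 0.66, and Acss2, which makes it from acetate, by 1.92 and 1.16. Plin2, a lipid droplet coat protein, fell in labelled knockdown (-0.74, SE 0.11, adjusted p = 0.00148), and its difference of -0.64 held in 1 of 8 leave-one-out fits (adjusted p up to 0.112).

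Interferon-stimulated genes fell in control and little in labelled knockdown. Of 31 tested, 22 fell and 1 rose in control, 3 fell and 3 rose in labelled knockdown, and the difference was positive for 11 and negative for 1 (17 and 1 with the block), with 9 changes lost. The medians were -1.03 and -0.33. Ifit3, an antiviral effector, had 14.2 and 15 CPM at day 0 and 4.45 and 2.37 CPM at day 5 in control, and 8.44 and 12.1 CPM at day 0 and 9 and 10.8 CPM at day 5 in labelled knockdown. Control day 5 was below all other libraries (2.00, SE 0.37, adjusted p = 0.00694). Psmb9, an immunoproteasome subunit, had 10.5 and 9.59 CPM at day 0 and 4.84 and 4.75 CPM at day 5 in control, and 6.91 and 6.61 CPM at day 0 and 9.34 and 8.41 CPM at day 5 in labelled knockdown (1.46, SE 0.24, adjusted p = 0.0038). Dhx58 and Bst2, a cytosolic RNA sensor and a virus-tethering protein, lost their falls too, calls that held in 4 and 1 of the 8 leave-one-out fits. Summed macrophage and osteoclast markers were between 0.554 and 1.42 CPM in all 8 libraries, and none of them passed the count filter.

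The chemokine list had 4 positive and 2 negative differences among 13 tested. Ccl2 and Ccl7, which draw monocytes, fell in control by 1.59 and 2.28 and rose in labelled knockdown by 0.89 and 0.78. Cxcl12, a niche chemokine of bone marrow, had 475 and 470.0 CPM at day 0 and 137 and 141 CPM at day 5 in control, and 181 and 176 CPM at day 0 and 148 and 141 CPM at day 5 in labelled knockdown. Labelled knockdown was already low at day 0, and the fall was weakened (1.47, SE 0.12, adjusted p = 3.43e-05). Lif, an interleukin-6 family cytokine, lost its rise (-2.56, SE 0.53, adjusted p = 0.0126, not passing without control day 0 replicate 1, adjusted p = 0.0606).

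Of 38 DNA replication genes tested, 13 fell and 2 rose in control, none fell and 2 rose in labelled knockdown, and the difference was positive for 7 and negative for none (20 and 1 with the block). Mcm3, part of the replicative helicase, had 140.0 and 142 CPM at day 0 and 96.5 and 97.8 CPM at day 5 in control, and 111 and 108 CPM at day 0 and 121 and 113 CPM at day 5 in labelled knockdown (0.64, SE 0.12, adjusted p = 0.00724). Cdc6, which loads that helicase, lost its control fall (0.95, SE 0.18, adjusted p = 0.0083), as did Mcm4, whose call held in 2 of 8 leave-one-out fits and became reversed with the block. Chaf1b, a chromatin assembly subunit, rose in labelled knockdown alone, a call held in 1 of 8.

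Of 36 mitosis genes, 23 rose in control and 12 in labelled knockdown with none falling, and the difference was negative for 6 (22 with the block) and positive for none. Kif11, the spindle motor, had 121 and 116 CPM at day 0 and 277 and 268 CPM at day 5 in control, and 140.4 and 138 CPM at day 0 and 191 and 173 CPM at day 5 in labelled knockdown. Both rose, control more (-0.81, SE 0.13, adjusted p = 0.00234). Bub1, Nusap1 and Smc2, of the spindle checkpoint, the spindle and the condensed chromosome, had differences of -0.69, -0.68 (weakened with the block) and -0.58, which held in 1, 2 and 2 of 8 leave-one-out fits.

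Of 17 cell-cycle inhibitors and p53 targets, 9 rose and 1 fell in control, 2 rose and 2 fell in labelled knockdown, and the difference was negative for 8 (11 with the block) and positive for none (1 with the block). Ccng1, cyclin G1, had 435 and 423 CPM at day 0 and 933 and 956 CPM at day 5 in control, and 667 and 700.2 CPM at day 0 and 792 and 803 CPM at day 5 in labelled knockdown (-0.92, SE 0.13, adjusted p = 0.00121). Its rise was lost, or weakened with the block. Eda2r and Trp53inp1, both induced by p53, rose less (-1.25, SE 0.17, adjusted p = 0.00094) or lost their rise (-1.11, SE 0.18, adjusted p = 0.00349). Gadd45b fell in labelled knockdown alone, a call that held in 2 of 8 leave-one-out fits and became reversed with the block.

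Of 22 immediate early genes, 14 rose and 2 fell in control, 6 rose and 4 fell in labelled knockdown, and the difference was negative for 8 and positive for none (11 and 3 with the block). Klf4, a zinc-finger factor, had 27.4 and 22 CPM at day 0 and 128 and 124 CPM at day 5 in control, and 126 and 134 CPM at day 0 and 89.6 and 91.2 CPM at day 5 in labelled knockdown. Control day 0 was low and the other 3 groups were high, and the change reversed (-2.87, SE 0.15, adjusted p = 2.42e-06). Jund, an AP-1 subunit, also reversed (0.48 and -0.97), while Egr2 and Dusp6, an ERK-induced factor and an ERK phosphatase, lost their rises (-1.49 and -1.42), Egr2 being reversed with the block.

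Microtubule and plus-end genes encode the structures that MACF1 binds. Of 27 tested, 7 rose and 7 fell in control and 1 rose and 4 fell in labelled knockdown, and the difference was negative for 5 and positive for none (8 and 3 with the block). Tubb2a, a beta-tubulin, fell by 0.66 and 1.26, and Tuba4a, Clip2 and Map1a had differences of -1.32, -0.59 and -0.57. These 4 calls held in 1 to 5 of 8 leave-one-out fits, and Clip2 and Map1a were reversed with the block.

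Antioxidant and lysosomal genes were mixed. Of 18 NRF2 and glutathione genes, 8 fell and 1 rose in control and 13 fell in labelled knockdown, with 3 positive and 3 negative differences. Fth1, ferritin heavy chain, had 3024 and 2880.3 CPM at day 0 and 832 and 805 CPM at day 5 in control, and 3558 and 3817 CPM at day 0 and 2003 and 2252 CPM at day 5 in labelled knockdown. Both fell, control more (1.06, SE 0.15, adjusted p = 0.00142), and Gsta4 and Gstm1, glutathione transferases, did the same (2.20 and 0.92). Me1, malic enzyme, lost its rise, a call that held in 3 of 8 leave-one-out fits, and was reversed with the block. Of 26 autophagy and lysosome genes, 3 had a positive and 1 a negative difference (9 and 5 with the block). Without the block that was 15.4%, against 9.48% of all genes tested, and with it 27.3% of all genes tested passed. Ctsb, cathepsin B, had 534 and 524 CPM at day 0 and 223 and 248 CPM at day 5 in control, and 419 and 438 CPM at day 0 and 509 and 489 CPM at day 5 in labelled knockdown, and its control fall was lost (1.39, SE 0.13, adjusted p = 9.19e-05), or reversed with the block. Map1lc3a, a protein of autophagosome membranes, had a difference of 0.84. Ctsl, cathepsin L, had one of 0.56 that held in 1 of 8 leave-one-out fits (adjusted p up to 0.156) and did not pass with limma (adjusted p = 0.113), and Sqstm1, an autophagy receptor, one of -0.45 that held in none of the 8 leave-one-out fits.

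No difference of courses passed among 44 cytoplasmic ribosomal protein genes or 32 nuclear genes of the respiratory chain. With the replicate block 1 ribosomal gene had a positive and 10 a negative difference, and 3 respiratory genes a positive and 1 a negative one. Of 29 unfolded protein and amino acid stress genes 1 had a negative difference (3 positive and 4 negative with the block), and of 10 Notch genes 1 had a positive one. That is 3.45% and 10.0% of these 2 lists, against 9.48% of all genes tested. With the block 27.3% of all genes tested passed.

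**Figure D3:**
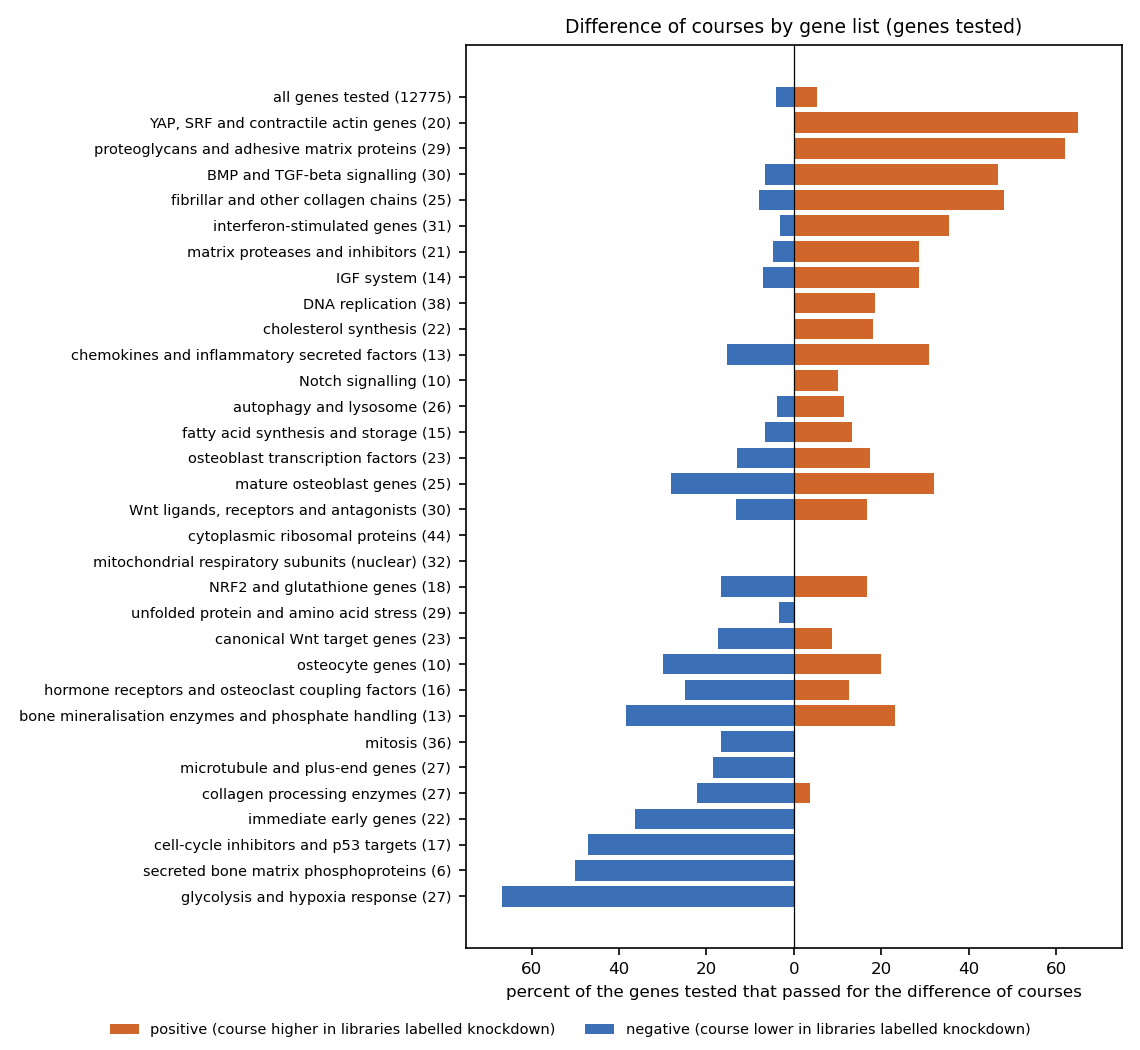
Bars give, for each gene list, the percent of its tested genes (number in brackets) whose difference of courses passed, positive to the right and negative to the left. All genes tested are at the top, with 5.32% and 4.16%, and the contractile and glycolysis lists lie at the 2 ends with 65.0% and 66.7%.

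**Figure D4:**
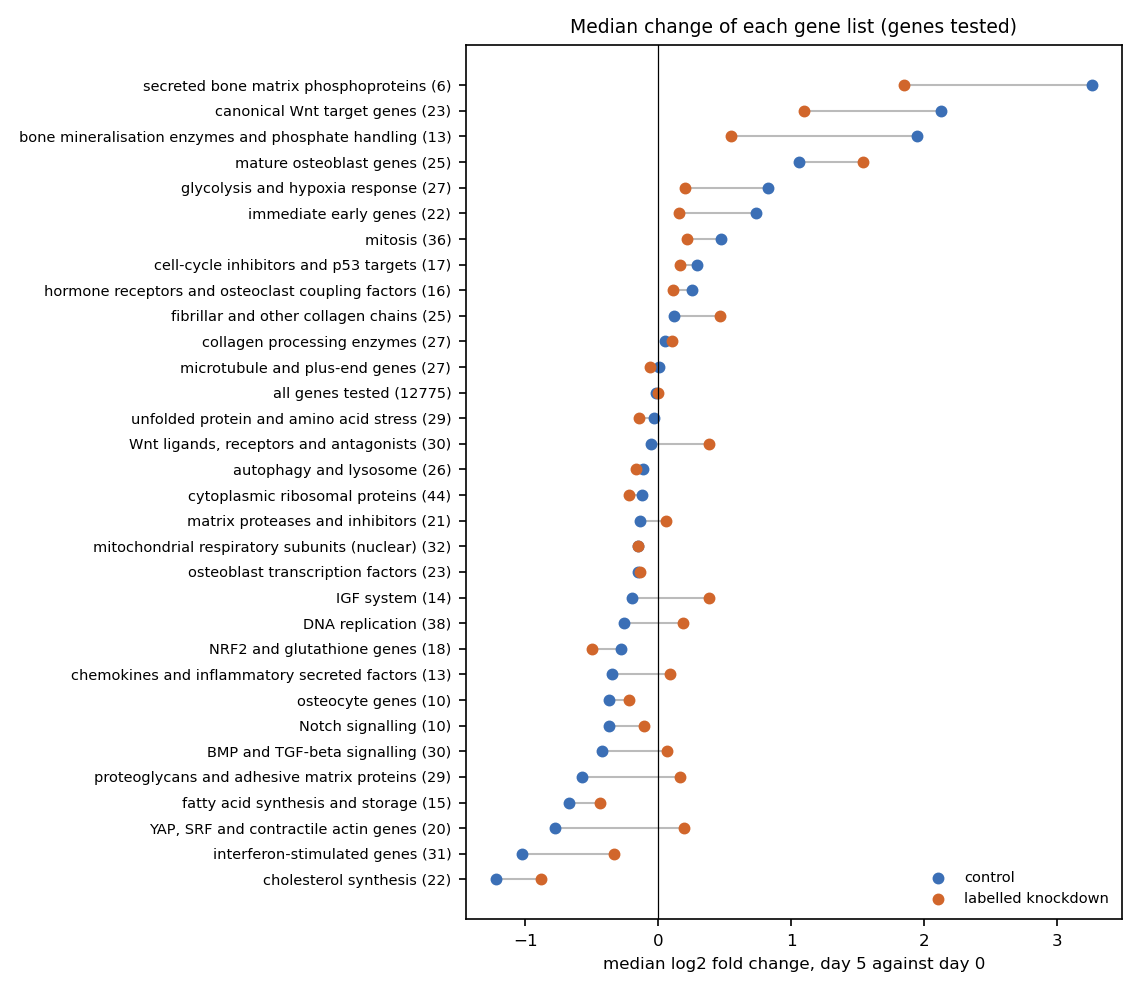
Points give each list's median log2 change from day 0 to day 5 in control (blue) and in the libraries labelled knockdown (orange), with the number of genes tested in brackets. The orange point lies nearer to zero than the blue one for phosphoproteins (3.26 and 1.84) and interferon-stimulated genes (-1.03 and -0.33), and across zero from it for contractile genes (-0.78 and 0.20).

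Outside the lists, the size rule named the genes with the most different courses. These were chosen for that value, so it is a description. H19 (ENSMUSG00000000031.13, chr7:142575529-142578143, minus strand), an imprinted noncoding RNA, had 0.773 and 0.215 CPM at day 0 and 548 and 449 CPM at day 5 in control, and 6.53 and 6.82 CPM at day 0 and 6.58 and 8.47 CPM at day 5 in labelled knockdown. Its control day 0 level rested on 12 and 3 counts, and the labelled-knockdown ranges overlapped. Ncf1, an NADPH oxidase subunit, had 0 counts in both control day 0 libraries, 46.9 and 39.2 CPM at control day 5 and below 1 CPM in labelled knockdown at both days. Padi2, which turns arginine to citrulline in proteins, reached 18.2 and 18.8 CPM at control day 5 against 3.91 and 4.75, from at most 1 count in control at day 0. Itgbl1, an integrin-like protein, ended at 1.74 and 1.34 CPM in control and at 17 and 14 CPM in labelled knockdown, so its negative log2 difference goes with a larger gain in CPM there, and with limma on log2(RPKM + 1) the difference was 0.55.

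Slc8a3, a sodium-calcium exchanger, had 0.709 and 0.716 CPM at day 0 and 45.2 and 45.8 CPM at day 5 in control, and 1.52 and 0.492 CPM at day 0 and 1.61 and 1.49 CPM at day 5 in labelled knockdown. The other 3 groups lay between 0.492 and 1.61 CPM, far below control day 5. C1qtnf3, a secreted complement-like protein, rose 70.1-fold and 3.92-fold. Prss35, a serine protease-like protein, started at 0.322 and 0.286 CPM in control and at 11.9 and 15.3 in labelled knockdown, and the day 5 ranges overlapped. Tmod1, an actin-filament capping protein, Steap3, an iron reductase, and Sema7a, a semaphorin, lost rises of 3.83, 3.38 and 4.78. With the block Steap3 became reversed and Sema7a weakened.

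Among lost falls, Nov, also called CCN3, an inhibitor of osteoblast differentiation, had 274 and 259 CPM at day 0 and 28 and 28.4 CPM at day 5 in control, and 69.2 and 68 CPM at day 0 and 84.3 and 76 CPM at day 5 in labelled knockdown. Its control fall was 3.24 (SE 0.10, adjusted p = 9.64e-09), and the small labelled-knockdown rise passed with the block only (adjusted p = 0.00378). Il1rn, the interleukin-1 receptor antagonist, fell from 31.6 and 30.6 CPM to 0.901 and 1.66 in control, and was below 1 CPM in labelled knockdown at both days. Otor, a secreted protein of cartilage-related cells, Aoc3, an amine oxidase, and Enpep, aminopeptidase A, fell by 4.60, 3.68 and 4.33 in control alone, Enpep being weakened with the block.

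Gained rises included Scg2, a secretory granule protein, with 7.6 and 8.8 CPM at day 0 and 8.27 and 5.38 CPM at day 5 in control, and 6.91 and 8.02 CPM at day 0 and 50.3 and 45.1 CPM at day 5 in labelled knockdown. Labelled-knockdown day 5 alone was high (2.92, SE 0.28, adjusted p = 9.52e-05). Nedd9, a focal adhesion scaffold, and Ackr4, a chemokine scavenger, rose by 2.01 and 2.86 in labelled knockdown, both from below the control level, and with the block Ackr4 was strengthened. Gained falls included Plxdc1, March11, Rdh10 and Crip1, with differences of -2.78, -2.24, -1.37 and -1.29. Each held in 2 to 3 of the 8 leave-one-out fits, and with the block Plxdc1 was reversed.

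Among reversed genes, Akap12, a scaffold of protein kinase A, had 144 and 149 CPM at day 0 and 20.9 and 20.9 CPM at day 5 in control, and 68.3 and 71.3 CPM at day 0 and 138 and 126 CPM at day 5 in labelled knockdown. Control was the higher at day 0 and the lower at day 5, with no overlap. S100b, a calcium-binding protein, had 28.8 and 26.9 CPM at day 0 and 7.54 and 7.04 CPM at day 5 in control, and 38.1 and 30.1 CPM at day 0 and 135 and 99 CPM at day 5 in labelled knockdown. Day 0 levels did not differ by the test and the courses then parted. Megf6, Gdpd2, Cdh26 and Itga1, an integrin chain, fell in control and rose in labelled knockdown, with differences of 3.89, 3.73, 3.63 and 3.62.

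In the other direction, Krt14, a keratin of basal epithelium, had 0.58 and 0.572 CPM at day 0 and 7.65 and 7.44 CPM at day 5 in control, and 46.3 and 42.3 CPM at day 0 and 10.7 and 6.78 CPM at day 5 in labelled knockdown. Labelled-knockdown day 0 was far above the rest, and day 5 ranges overlapped. The 4 of 7 epithelial markers in the count table summed to 1.68 to 2.00 CPM at control day 0, 7.52 to 7.82 at control day 5, 50.4 to 51.8 at labelled-knockdown day 0 and 9.96 to 14.2 at labelled-knockdown day 5. Esrp1 was at 0 in all 8 libraries, Krt5 was at most 0.387 CPM, and Cdh1, the epithelial cadherin, had 0.0791 to 1.43 CPM in control and 3.19 to 8.16 CPM in labelled knockdown. Their part in the courses was not tested. Lrrc15, a membrane protein of mesenchymal cells, Trpv4, a calcium channel opened by stretch, and Anxa8, an annexin, also rose in control and fell in labelled knockdown, with differences of -4.51, -3.49 and -3.40.

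The largest kept changes passed in both conditions, and their differences did not pass with edgeR. Ramp1, a subunit of the calcitonin gene-related peptide receptor, had 3.16 and 4.08 CPM at day 0 and 55.1 and 52.6 CPM at day 5 in control, and 2.29 and 2.67 CPM at day 0 and 27.1 and 27.1 CPM at day 5 in labelled knockdown. It rose by 3.90 and 3.46 (difference -0.44, SE 0.24, adjusted p = 0.314), and the difference passed with limma on log2(RPKM + 1) (-0.67, adjusted p = 0.0368). Bmper, a BMP-binding protein, Insc, a polarity adaptor, and Sema6a, a semaphorin, rose by 3.85 and 4.02, 3.33 and 3.50, and 3.48 and 3.67. For Sema6a the same limma fit gave a difference of -1.22 (adjusted p = 0.0019). Among kept falls, Dio3, which inactivates thyroid hormone, fell by 2.55 and 2.63, and Fam19a5 by 3.01 and 2.39. Ly6a, the surface antigen Sca-1, fell by 3.05 and 2.08, with a difference of 0.97 (SE 0.31, adjusted p = 0.0776) that passed with the block (adjusted p = 0.00858). Itgb7, an integrin chain, had at most 0.644 CPM in control, so its kept fall rests on few counts there, and limma gave a difference of -1.40 (adjusted p = 0.00189). A kept call does not show that the courses were equal.

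Days 3 and 10, which the difference of courses did not use, were read as levels without a test. Day 10 has 1 library per condition, and control day 3 replicate 2 stands apart from its replicate, as its Macf1 level of 56.7 CPM against 195 shows. At day 3 Ibsp was at 1202 and 1065 CPM (control) against 93.4 and 74.2 CPM (labelled knockdown), and at day 10 at 2105 against 125 CPM, so labelled knockdown was lower at all 4 days. Dmp1 at day 3 was at 20.8 and 12.8 CPM (control) against 63.8 and 52.2 CPM (labelled knockdown), and at day 10 the order was the same, 119 against 179 CPM. Its control level was below that of labelled knockdown at every day but day 5.

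Spp1 at day 3 was at 1001 and 615 CPM (control) against 2267 and 2025 CPM (labelled knockdown), and at day 10 control was the higher, 7514 against 5809 CPM. For Sfrp2 the values were 322 and 247 CPM (control) against 163 and 170.3 CPM (labelled knockdown) at day 3, and 323 against 282 CPM at day 10. Its large difference was thus at day 0. Npnt was lower in labelled knockdown at day 3, 1549.9 and 1345 CPM (control) against 924 and 947 CPM (labelled knockdown), and higher at day 10, 278 against 418 CPM. Igf1 was higher in labelled knockdown at day 3, 46.3 and 53.1 CPM (control) against 135 and 115 CPM (labelled knockdown), and at day 10, 76.7 against 308 CPM. Pgk1 was close in the conditions at day 10, 1268 against 1326 CPM, after 296 and 242 CPM (control) against 199 and 198 CPM (labelled knockdown) at day 3, so the conditions were farthest apart at day 5. H19 was lower in labelled knockdown at day 3, 27.8 and 23.7 CPM (control) against 2.92 and 1.71 CPM (labelled knockdown), and at day 10, 1307 against 203 CPM.

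**Figure D5:**
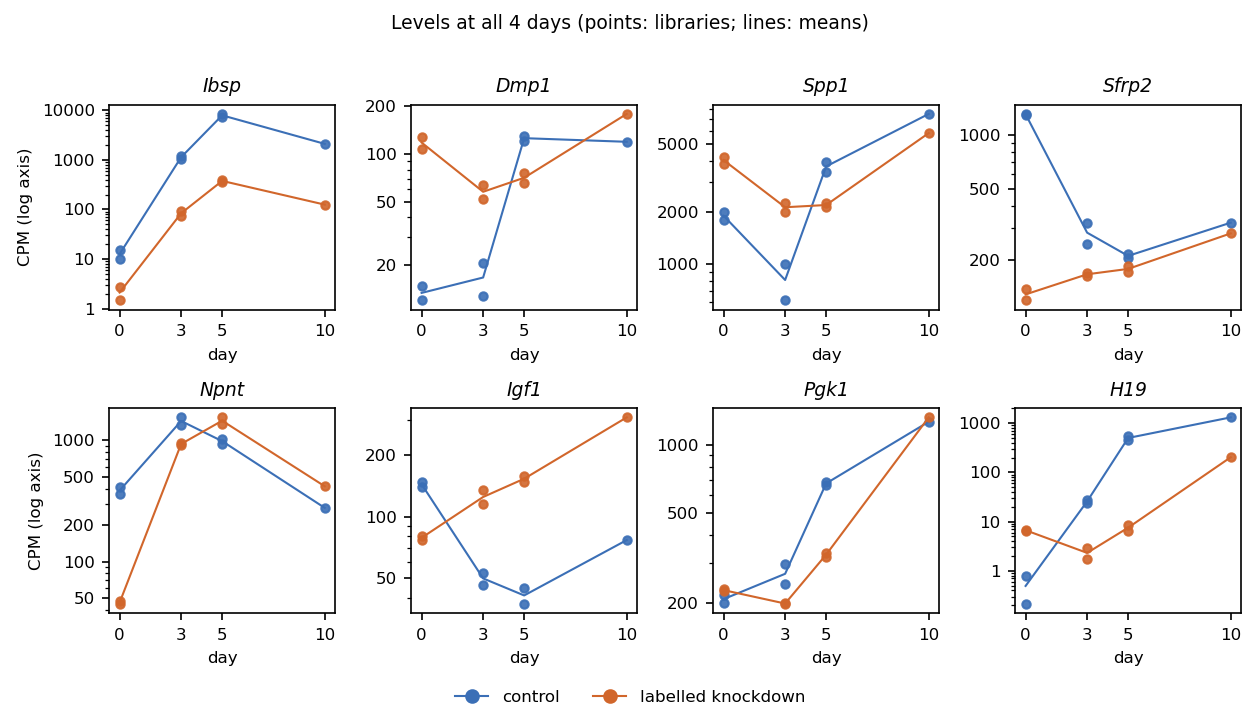
CPM on log axes at days 0, 3, 5 and 10 for 8 genes, control in blue and labelled knockdown in orange, with a point for each library and lines through the means (2 libraries a point at days 0, 3 and 5, and 1 at day 10). Ibsp lies lower in labelled knockdown throughout, while the Pgk1 lines are farthest apart at day 5 and close at day 10.

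Among the 157 genes the rules named, 136 passed for the difference of courses. Of those, 94 passed in every fit that left out 1 of the 8 libraries and 42 did not in at least 1. On the linear CPM scale 1190 of the 1211 differences kept their sign and 21 did not, Alpl among them, and 48 of the 1211 genes had a library with fewer than 4 counts.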

How the data were processed

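Poly(A) RNA was made into directional libraries, per the labels' protocols. The authors deposited a table of read counts per gene, which all tests used, and a table of RPKM values, used as 1 alternative. The submitters' processing notes name bcl2fastq, TopHat2, edgeR and GRCm38. No source used here gives the counting tool, its strand setting or the annotation, so overlapping and near-identical genes are uncertain. edgeR 4.0.16 in R 4.3.3 was run on the counts of the 8 libraries of days 0 and 5 (trimmed-mean scaling, 4 group means, 4 residual degrees of freedom, robust quasi-likelihood F test, Benjamini-Hochberg over 12775 genes, threshold 0.05). Genes needed at least 10 counts in at least 2 libraries. Standard errors are the estimate divided by the root of F. DESeq2 1.42.0 and limma 3.58.1, on log2(RPKM + 1), were alternatives, beside other scaling, filters, a 2-fold threshold, 13 or 14 libraries and leaving out each library.

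Levels at days 3 and 10 were scaled over all 14 libraries and brought to the scale of the 8. Replicate numbers come from the sample titles. Deviations of same-numbered libraries from their group means correlated at 0.454 to 0.575 in all 6 pairs of groups (9919 genes with a mean of at least 5 CPM). The replicate number was therefore also fitted as a block, as an alternative. The main fit, which gave the classes, standard errors and adjusted p-values, did not use this pairing unless the block is named. The check cannot tell shared culture or handling from depth, since replicate 1 was the deeper library in every group. Replicates of a group differed beyond sampling noise (chi-square per degree of freedom 12.8 to 40).

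The members and gene lists were chosen with earlier results of these data known. Named genes were 23 fixed names, the 10 largest differences in each direction, the 5 largest of each direction in the lost, gained and reversed classes, the 5 largest kept rises and falls (all with a mean of at least 5 CPM), and the 4 largest calls of each list that had at least 3. A few genes that this rule names are not reported here. The promoters shown are RefSeq windows of 250 bases before the RefSeq start, cut at the GENCODE M21 gene end and matched by symbol. Match positions count from the RefSeq start. Shares of promoters with a motif were counted over the whole RefSeq entries, which also hold bases past the start. The test was tried on simulated counts first. The 43 genes without a GENCODE M21 match have no position.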

Additional observations from a re-analysis of the deposited data

Results flagged for a closer look

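The test of the difference of courses itself marked 679 genes as higher and 532 as lower in the libraries labelled knockdown relative to control. Within these, genes that moved in opposite directions in every library of the 2 conditions were singled out by size. Megf6, Gdpd2, Akap12, S100b and Cdh26 fell from day 0 to day 5 in control and rose in the libraries labelled knockdown, with log2 differences of 3.89, 3.73, 3.72, 3.71 and 3.63. Krt14, Lrrc15, Dmp1, Trpv4 and Anxa8 rose in control and fell in the libraries labelled knockdown, with differences of -6.01, -4.51, -3.95, -3.49 and -3.40. Krt14 is also the main part of the epithelial marker sum, which was highest at day 0 in the libraries labelled knockdown.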

How the results depend on the processing

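Counts are given as positive differences, negative differences, control rises, control falls, labelled-knockdown rises and labelled-knockdown falls, then kept, weakened, strengthened, reversed, lost and gained, where a count moved over 1.5 times. With the replicate block they were 1721, 1761, 3101, 3291, 2338 and 2423, then 1947, 830, 167, 418, 1488 and 513, and the interaction call changed for Mgp, Runx2, Dlx5, Col1a2, Axin2 and Ly6a and for no other named gene. With all 14 libraries they were 108, 73, 565, 506, 190 and 68, then 119, 12, 4, 13, 120 and 27, with 886 undecided. With 13 libraries, without control day 3 replicate 2, 1320 differences passed and 96.5% of the 1211 were shared, so that library set the loss. With a 2-fold threshold they were 341, 216, 621, 544, 322 and 148, then 182, 34, 8, 16, 313 and 80, with 762 undecided. Without a filter 816 differences were negative and 255 changes weakened. Leaving out 1 library gave 430 to 530 positive and 294 to 355 negative differences, 1294 to 2064 and 1216 to 2058 control rises and falls, 515 to 970 and 417 to 833 labelled-knockdown rises and falls, 516 to 803 kept, 77 to 121 weakened, 17 to 27 strengthened, 81 to 104 reversed, 374 to 582 lost, 80 to 116 gained and 1924 to 2961 undecided, with fewer degrees of freedom. Shared interaction calls were 98.3% with median-ratio factors, 90.6% with DESeq2 (1173 calls) and 73.3% with limma on log2(RPKM + 1), where 1 had the opposite sign. There the call was lost for Col1a1, Irx5, Col24a1, Tnfrsf19, Sqle, Acss2, Me1, Chaf1b, Mcm4, Gadd45b, Map1a and Ctsl and gained for Bglap, Phex, Tcf7, Dlx5 and Ramp1. In that fit Alpl (-0.86, adjusted p = 0.00688), Itgbl1 (0.55), Sema6a (-1.22), Itgb7 (-1.40) and Igf2 (-0.37) changed sign, all low at day 0 in 1 condition. An added 1 shrinks log2 changes of low values, and its part in these changes of sign was not tested. Over all settings the interaction calls of named genes were weaker 308 times and stronger 17 times. Genes with few counts limit the depth: 48 of the 1211 had a library under 4 counts.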
